A study of Homo sapiens with 4 samples.

Results

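The lower part of glycolysis carries triose phosphate to pyruvate, and lactate dehydrogenase then turns pyruvate into lactate. The genes described here are those of these steps: GAPDH, PGK1, PGAM1, the enolases ENO1, ENO2 and ENO3, PKM, and the lactate dehydrogenases LDHA and LDHB. They were chosen by gene symbol and not by a filter on their values, though with earlier results of these data known. They are 9 of the 12912 genes in the count table. Each symbol occurred once, and all 9 genes had enough counts to be tested. The RNA came from 786-O, a clear cell renal cell carcinoma line without functional VHL, in 2 sublines of the version labelled 786-OTR. The subline 786-O-Ctrl, labelled wild type (VHL-null) and called the control here, was compared with 786-O-VHL, called restored, into which HA-tagged VHL had been brought by retrovirus. Both sublines also carry the triple reporter (GFP, luciferase and thymidine kinase) and were grown in RPMI1640 with serum. There were 2 libraries per group, each group is 1 subline, and the sources do not say whether the libraries came from separate cultures, so that the p-values measure the spread between libraries, which may be technical.
VHL is the substrate-binding subunit of a ubiquitin ligase that marks hydroxylated HIFα for degradation, and in cells without VHL the HIF transcription factors remain stable. Many glycolysis enzymes are textbook HIF targets, and clear cell renal carcinoma is known for high glycolysis. GAPDH reduces NAD+ while it oxidizes glyceraldehyde phosphate, PGK1 and PKM each make ATP, PGAM1 and the enolases rearrange and dehydrate phosphoglycerate, and lactate dehydrogenase restores the NAD+ that GAPDH consumes.
The control libraries held 22141263 and 15714166 counts, restored replicate 1 held 2807779 and restored replicate 2 held 16114120. Both control columns have the same name in the table, so they are told apart by depth, and control values are given with the deeper library first. VHL mRNA was at 42.9 and 43.9 CPM (counts per 1000000, with library sizes scaled by edgeR's TMM factors) in the control and at 178 and 163 CPM in restored cells, in the direction of the labels. The kidney epithelium and renal carcinoma markers PAX8, PAX2, CDH6, KRT8, KRT18, CA9 and EPCAM were all measured. They summed to between 1107 and 1470 CPM in each library, with CA9 at no more than 1.20 CPM and EPCAM at no more than 10.9 CPM. The keratin KRT8 alone held between 477 and 769 CPM, and PAX8 between 137 and 277 CPM. Of 4 leukocyte, 4 endothelial and 4 fibroblast and muscle markers, 1, 2 and 2 were measured, and the lists summed to no more than 1.02, 0.76 and 15.8 CPM. Mitochondrial RNA took 2.46% and 2.62% of the counts in the control and 1.98% and 1.79% in restored cells. The calls held for all 9 genes with scaling without mitochondrial genes and the 9 genes, and for 8, all but LDHB, after thinning to equal depth.

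Windows at the RefSeq gene starts show how the genes differ in the core letters of the hypoxia response element, the DNA element that HIF binds. Each window spans 250 bases before to 50 after the start. The 5-base strings ACGTG and GCGTG were searched on both strands, and overlapping matches were merged into 1 site, since a palindromic CACGTG matches on both. Of 35116 such windows in the RefSeq table (GRCh38.p14), 48.4% held at least 1 site, 20.0% at least 2, and 2.75% at least 4. All 9 genes had an entry, with 11 windows in total, and 9 of the 11 windows held a site. Counted per gene, which the shares of windows do not match, 8 of the 9 genes had a site in at least 1 window. PGK1 and the first LDHA start held 4 sites each, ENO1 and the first ENO3 start 2 each, and GAPDH, ENO2, PKM, LDHB and the second LDHA start 1 each. PGAM1 and the second ENO3 start held none. The 250 bases before the start are shown 5′ to 3′ for the windows richest in sites, for GAPDH and ENO2 with 1 site each, and for LDHB, whose site lies after the start. Capitals mark the matched letters, and the remaining site of LDHA and of PGK1 also lies after the start.
LDHA, chr11:18394313-18394562, plus strand: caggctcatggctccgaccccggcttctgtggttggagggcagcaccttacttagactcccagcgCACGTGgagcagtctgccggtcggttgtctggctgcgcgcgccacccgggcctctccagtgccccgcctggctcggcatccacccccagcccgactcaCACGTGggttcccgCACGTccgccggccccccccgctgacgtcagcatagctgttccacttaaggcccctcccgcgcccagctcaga
PGK1, chrX:78103998-78104247, plus strand: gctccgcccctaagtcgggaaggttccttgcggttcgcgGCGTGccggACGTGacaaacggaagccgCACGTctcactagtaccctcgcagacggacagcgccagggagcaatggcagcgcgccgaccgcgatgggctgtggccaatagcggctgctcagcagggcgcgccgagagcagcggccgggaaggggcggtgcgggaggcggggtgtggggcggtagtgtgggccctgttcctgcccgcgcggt
GAPDH, chr12:6535014-6535263, plus strand: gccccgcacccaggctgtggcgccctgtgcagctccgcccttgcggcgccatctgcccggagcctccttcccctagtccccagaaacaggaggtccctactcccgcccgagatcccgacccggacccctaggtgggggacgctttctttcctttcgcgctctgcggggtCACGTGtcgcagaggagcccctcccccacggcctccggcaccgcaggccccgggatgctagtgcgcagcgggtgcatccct
ENO2, chr12:6914330-6914579, plus strand: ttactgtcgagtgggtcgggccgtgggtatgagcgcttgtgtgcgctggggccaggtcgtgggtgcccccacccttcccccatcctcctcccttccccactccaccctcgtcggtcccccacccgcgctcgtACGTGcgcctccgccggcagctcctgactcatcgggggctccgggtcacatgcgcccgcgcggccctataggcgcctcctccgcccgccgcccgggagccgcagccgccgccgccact
LDHB, chr12:21657843-21658092, minus strand: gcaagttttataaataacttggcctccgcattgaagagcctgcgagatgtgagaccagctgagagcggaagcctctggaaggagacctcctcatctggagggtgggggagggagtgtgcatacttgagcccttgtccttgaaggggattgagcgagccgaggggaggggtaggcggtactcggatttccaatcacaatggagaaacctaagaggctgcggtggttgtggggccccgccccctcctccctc
Among the windows not shown, ENO1 and the first ENO3 start held 2 sites each before the start. PGAM1 held none, and the site of PKM, like that of LDHB, lies after the start. Of these genes ENO3 rose (log2 fold change 1.26), and ENO1 (-0.71), PGAM1 (-1.20) and PKM (-1.07) fell, so the windows printed are not typical of all 9 genes. The matches are a description of these letters, which nearly as many windows hold as lack, and say nothing of binding in these cells.

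VHL restoration was accompanied by lower mRNA at every step from GAPDH to lactate. Of the 9 genes, 8 were lower and ENO3 was higher in restored cells by edgeR's quasi-likelihood test at a false discovery rate (FDR) under 0.05, adjusted over all 12335 genes tested. Across those genes, 31.9% were called lower and 32.6% higher. The LDHB call depended on the fit. DESeq2 called 7 of the 9 genes lower, without LDHB (DESeq2 FDR = 0.273), against 24.4% of all genes. The median log2 fold change of the 9 genes was -1.11, and that of all genes tested was 0.02. Together the 9 genes took 1.56% and 1.54% of all counts in the deeper and shallower control libraries, and 0.823% and 0.852% in restored replicates 1 and 2. This share does not depend on TMM scaling. Fewer expressing cells, less RNA of these genes per cell and a rise of other RNAs cannot be told apart in it. With 2 libraries against 2, a two-sided exact permutation test cannot go below p = 0.333, which is the p of this difference. At least a 2-fold fall with FDR < 0.05 was found for GAPDH, PGK1, PGAM1, ENO2, PKM and LDHA, 6 of the 9 genes, against 7.52% of all genes tested. With library totals in place of TMM scaling, PKM (log2 fold change -0.94) and LDHA (-0.97) fell short of 2-fold, and the other 4 did not.

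**Figure D1:**
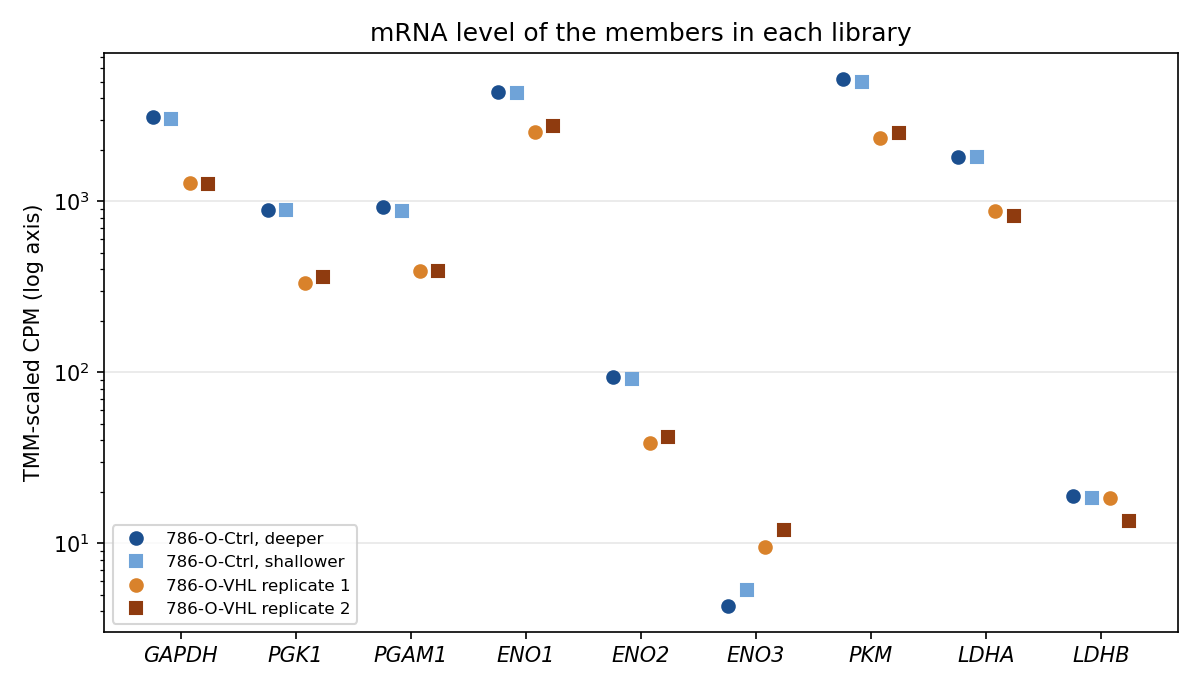
TMM-scaled CPM (log axis) of the 9 genes in pathway order, with 1 point per library. In the control the levels run from 4.32 CPM for ENO3 in the deeper library to 5165 CPM for PKM. Both restored libraries (orange and brown) lie below both control libraries (blue) for all genes but ENO3. The same holds for 39.2% of all genes tested. For LDHB, restored replicate 1 (18.32 CPM) is level with the shallower control (18.34 CPM).

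GAPDH, the enzyme that joins oxidation to phosphate transfer, was at 3103 and 3033 CPM in the deeper and shallower control libraries and at 1287 and 1267 CPM in restored replicates 1 and 2. The groups were far apart and the libraries within each agreed closely. The log2 fold change was -1.27 (standard error, SE, 0.0589, edgeR FDR = 7.23e-17), and 4.89% of the genes tested fell further. GAPDH ranked 15 among all genes in the control and 54 in restored cells by CPM. The gene (GRCh37, as for all gene positions here; chromosome 12, 6643678 to 6647540, plus strand) shares 422 of its 2396 exonic bases with an annotated gene on the opposite strand that was not analysed here.
PGK1, which makes ATP from bisphosphoglycerate, had the lowest log2 fold change of the 9 genes, within error of that of GAPDH. Its level was 886 and 887 CPM in the control and 335 and 362 CPM in restored replicates 1 and 2. The log2 fold change was -1.34 (SE 0.0629, edgeR FDR = 9.24e-17), which leaves 39.6% of the level in the control. The gene spans X from 77166236 to 77384792 on the plus strand, and shares 97 of its 5437 exonic bases with ATP7A on the same strand. The phosphoglycerate mutase copy PGAM4 lies inside it on the opposite strand, without shared exonic bases.
PGAM1, which moves the phosphate of phosphoglycerate, was at 922 and 880 CPM in the control and at 390 and 392 CPM in restored cells, a pair that nearly coincided. The log2 fold change was -1.20 (SE 0.0616, edgeR FDR = 6.09e-16). PGAM1 lies on chromosome 10 from 99185948 to 99193201 on the plus strand with no annotated overlap. The fold changes of GAPDH, PGK1 and PGAM1, which act in sequence, thus ranged from -1.34 to -1.20 on the log2 scale.
PKM encodes pyruvate kinase, whose M1 and M2 forms arise by alternative splicing of 1 gene, and counts per gene do not separate them. PKM was at 5165 and 5015 CPM in the control and at 2346 and 2494 CPM in restored cells. It had the highest CPM of the 9 genes in the control and lay below ENO1 in restored cells. The log2 fold change was -1.07 (SE 0.0593, edgeR FDR = 3.66e-15), and PKM lies on chromosome 15 from 72491370 to 72524160 on the minus strand with no annotated overlap.

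**Figure D2:**
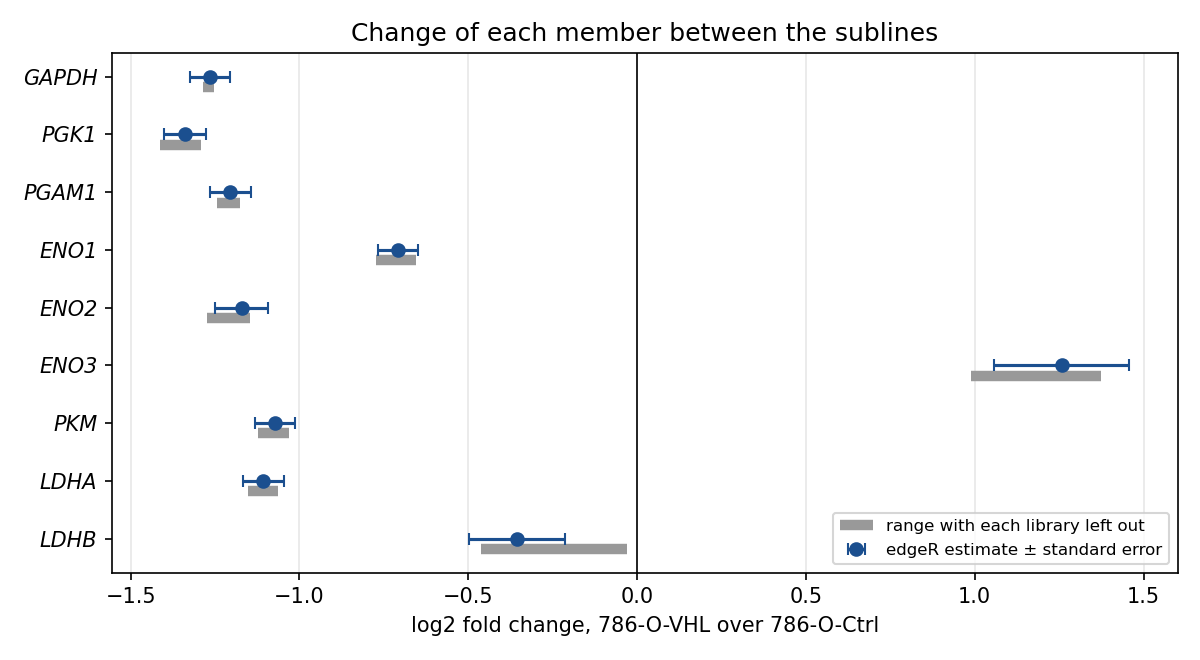
Log2 fold change of each gene (restored over control, point, with the edgeR SE as bar), and the range of the estimate when each library is left out in turn (grey). Of these, 6 genes lie between -1.34 and -1.07, ENO1 at -0.71 and LDHB at -0.36, and ENO3 lies at 1.26.

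The enolase step was carried almost wholly by ENO1, and its 3 genes changed to different degrees. ENO1, the widely expressed α-enolase, was at 4373 and 4283 CPM in the control and at 2543 and 2751 CPM in restored replicates 1 and 2. Its log2 fold change was smaller than those of PGAM1 and PKM, which act before and after it, at -0.71 (SE 0.0596, edgeR FDR = 2.93e-11), and 61.2% of the level in the control remained. ENO1 (chromosome 1, 8921059 to 8939249, minus strand) shares 126 of its 5216 exonic bases with ENO1-AS1 on the opposite strand, which was not analysed here.
ENO2, the γ-enolase of neurons, was at 93.7 and 90.8 CPM in the control and at 38.3 and 41.8 CPM in restored cells (log2 fold change -1.17, SE 0.0776, edgeR FDR = 1.83e-13). Its groups were well apart. Within each library, the log2 ratio of ENO2 to ENO1 was -5.55 and -5.56 in the control and -6.05 and -6.04 in restored cells. The ratio was thus lower in both restored libraries by 0.49 on the log2 scale, against SDs of 0.0106 and 0.0069 (n = 2 each), with the smallest exact permutation p that 2 against 2 allows, 0.333. ENO2 (chromosome 12, 7022909 to 7032861, plus strand) overlaps LRRC23 on the same strand without shared exonic bases.
ENO3, the β-enolase of muscle, was the only gene of the 9 that rose. Counts of ENO3 were 91 and 80 in the control libraries and 28 and 202 in restored replicates 1 and 2, or 4.32, 5.32, 9.498 and 12.0 CPM. Both restored libraries were above both control libraries, with a log2 fold change of 1.26 (SE 0.199, edgeR FDR = 3.33e-06). The call held with each library left out, at log2 fold changes between 0.99 and 1.38. ENO3 lies on chromosome 17 from 4851387 to 4860426 on the plus strand and shares 111 of its 4292 exonic bases with PFN1 on the opposite strand. PFN1, the actin-binding profilin, was at 1238 and 1191 CPM in the control and at 683 and 731 CPM in restored cells. The use of strand in counting is not given, and the part of reads from the shared bases in the ENO3 counts was not tested.
As shares of the counts of the step, ENO1 held 97.8% in both control libraries and 98.2% and 98.1% in restored replicates 1 and 2. ENO2 held 2.10% (95% Wilson interval 2.005 to 2.188) and 2.07% (1.97 to 2.19) in the deeper and shallower control libraries, and 1.48% (1.23 to 1.78) and 1.49% (1.38 to 1.60) in restored cells. The share of ENO3 was 0.0967% (0.0787 to 0.119) and 0.121% (0.0976 to 0.151) in the control, and 0.367% (0.254 to 0.529) and 0.428% (0.373 to 0.491) in restored cells. The shares of the minor enolases thus differed in opposite directions, with intervals that did not overlap between the groups but cover counting error only, and exact permutation p = 0.333 for each. After thinning all libraries to equal depth, the difference in share (restored minus control, in percentage points) was 0.0949 in place of 0.311 for ENO1 and -0.398 in place of -0.6 for ENO2. Per kilobase of the canonical transcript, which sets genes of different length on 1 scale, the mean share in the control and in restored cells was 98.2% and 98.4% for ENO1, 1.62% and 1.16% for ENO2, and 0.134% and 0.488% for ENO3. The 3 genes together fell to 61.0% of their CPM in the control, and ENO1 alone to 61.2%.

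LDHA, the M subunit of lactate dehydrogenase, was the predominant gene of the last step and fell, while LDHB, the H subunit, held between 0.995% and 2.05% of the counts of the step. LDHA was at 1824 and 1825 CPM in the control and at 877 and 822 CPM in restored cells, a log2 fold change of -1.11 (SE 0.0603, edgeR FDR = 2.51e-15). It lies on chromosome 11 from 18416107 to 18429972 on the plus strand.
LDHB had 398 and 276 counts in the control and 54 and 228 in restored cells, or 18.9 and 18.3 CPM against 18.3 and 13.5 CPM in replicates 1 and 2. Restored replicate 1 was thus level with the control libraries and replicate 2 was below them. The log2 fold change was -0.36 (SE 0.142, edgeR FDR = 0.0302). The call was lost without restored replicate 2 (log2 fold change -0.03, edgeR FDR = 0.915), without the deeper control library (-0.31, edgeR FDR = 0.205) and without the shallower one (-0.35, edgeR FDR = 0.122), and with DESeq2 (-0.31, FDR = 0.273). LDHB (chromosome 12, 21788276 to 21910791, minus strand) shares 997 of its 2983 exonic bases with an annotated gene on its own strand that was not analysed here, so its level is uncertain.
The log2 ratio of LDHA to LDHB was 6.59 and 6.64 in the control and 5.58 and 5.92 in restored replicates 1 and 2. It was lower in both restored libraries, with a mean difference of -0.86 (SD 0.0313 and 0.243, n = 2 each; exact permutation p = 0.333, the smallest possible). As a share of both genes' counts, LDHB held 1.03% (95% Wilson interval 0.930 to 1.13) and 0.995% (0.885 to 1.12) in the control, and 2.05% (1.57 to 2.66) and 1.62% (1.425 to 1.843) in restored cells. LDHA still held 98.0% and 98.4% of the counts there. Per kilobase of the canonical transcript, the mean share of LDHB was 1.73% in the control and 3.11% in restored cells. The lower share of LDHA thus came with a fall of LDHA and with no rise of LDHB in CPM.

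**Figure D3:**
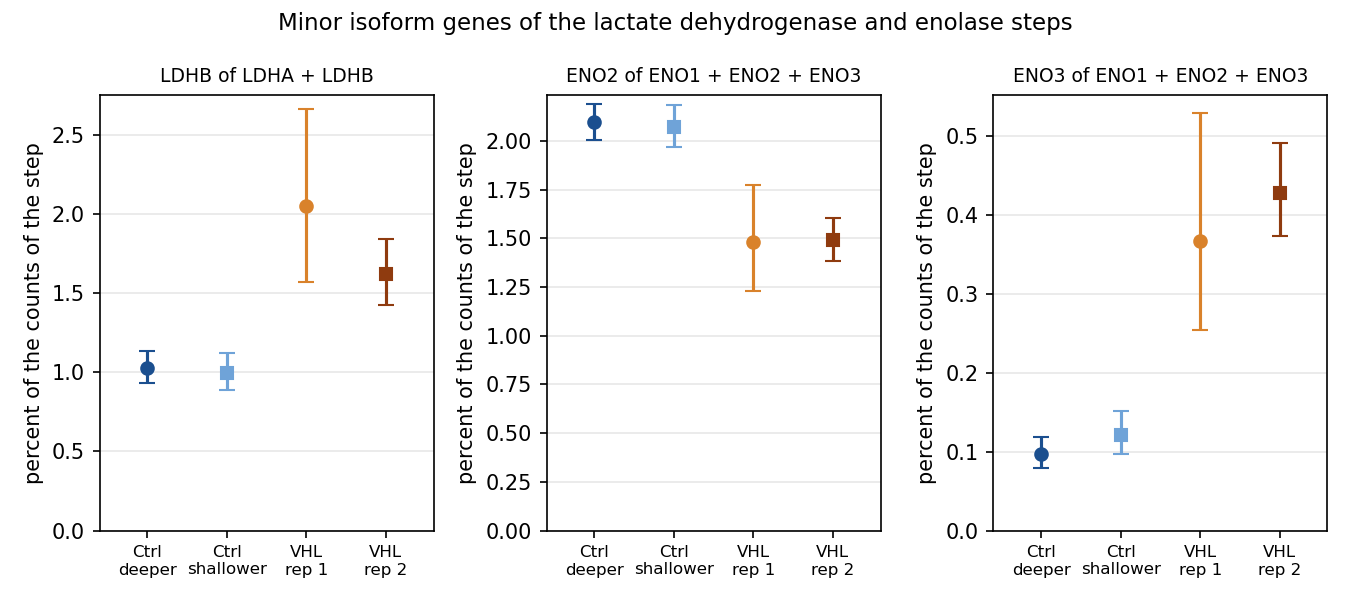
Percent of the counts of the step held by LDHB (left), ENO2 (middle) and ENO3 (right), with 1 point per library and its 95% Wilson interval as bar. LDHB and ENO3 hold larger shares in both restored libraries, at least 1.62% and 0.367%, and ENO2 a smaller one, at most 1.49%.

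Relative to GAPDH within each library, the other genes fell into 3 patterns. GAPDH itself fell, and 4.89% of all genes tested had a lower log2 fold change. A rise relative to GAPDH is thus what most genes show and is not particular to these genes. The share of all genes whose ratio to GAPDH did not overlap between the groups was not computed. The log2 ratio of PGK1 to GAPDH overlapped between the groups (-1.81 and -1.77 in the control, -1.94 and -1.81 in restored cells), and so did that of ENO2 (exact permutation p = 0.667 and 1). PGAM1, PKM and LDHA were higher relative to GAPDH in both restored libraries, by 0.06, 0.19 and 0.16. The ratio of ENO1 was higher by 0.55 (SD 0.0025 and 0.0958), that of LDHB by 1.02 (SD 0.007 and 0.293) and that of ENO3 by 2.42 (SD 0.235 and 0.254, n = 2 each). The exact permutation p was 0.333 for each of the 6 ratios whose groups did not overlap. LDHB, lower in mean CPM, was therefore higher when GAPDH was the reference. As a share of the counts of the 9 genes, ENO1 was at 26.7% in both control libraries and at 32.4% and 33.7% in restored cells, and GAPDH was at 18.9% in both control libraries and at 16.4% and 15.5% in restored cells.

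**Figure D4:**
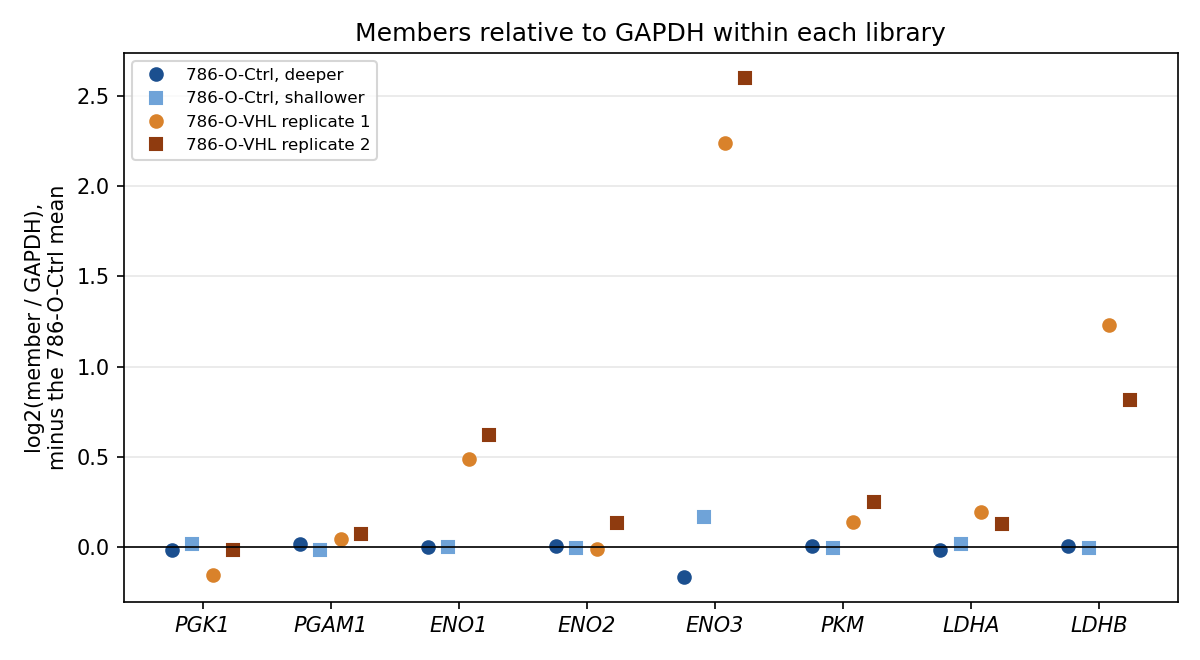
Log2 ratio of each gene to GAPDH in each library, minus the mean of both control libraries. GAPDH itself fell, and 4.89% of all genes tested had a lower log2 fold change. PGK1 and ENO2 overlap between the groups, PGAM1, PKM and LDHA lie slightly higher in restored cells, and ENO1, LDHB and ENO3 are higher on average by 0.55, 1.02 and 2.42.

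Levels of different genes were compared as CPM per kilobase of the canonical transcript. In the control the order of the means was ENO1 (2430), GAPDH (2388), PKM (2208), LDHA (814), PGAM1 (500.1), PGK1 (184), ENO2 (40.2), LDHB (14.3) and ENO3 (3.32). ENO1 and GAPDH overlapped between libraries and the other neighbours did not. In restored cells the order was ENO1 (1486), PKM (1050), GAPDH (994), LDHA (379), PGAM1 (217), PGK1 (72.4), ENO2 (17.5), LDHB (12.2) and ENO3 (7.40), and no neighbours overlapped. On this scale GAPDH thus lay above PKM in the control and below it in restored cells, and the distance from LDHB to ENO3 narrowed. The change of order was not seen on the other scales. In mean CPM, PKM lay above GAPDH in both groups (5090 against 3068 in the control, 2420 against 1277 in restored cells). Per kilobase of all annotated exons, PKM lay below GAPDH in both groups (594 against 1280 and 282 against 533). The order of the most abundant genes depends on the length used, and per kilobase of all annotated exons GAPDH led in both groups, at 1280 against 830 for ENO1 in the control and at 533 against 507 in restored cells. Near-identical copies add to the uncertainty of levels, since the annotation holds 98 numbered pseudogenes of 7 of these genes, 65 of them of GAPDH, and none of these was analysed here.

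Most, but not all, of the measured genes of the upper steps of glycolysis were lower in restored cells. Of 13 genes from hexokinase to triose phosphate isomerase, 10 were tested, and 8 were lower and 2 higher at FDR < 0.05. Of all genes tested, 31.9% were called lower and 32.6% higher. The median change of the list was -0.70 on the log2 scale. The triose phosphate isomerase TPI1, which feeds GAPDH, fell by 1.49 on the log2 scale (SE 0.0649), and the aldolase ALDOC had 43 and 39 counts in the control and 0 and 15 in restored cells (log2 fold change -1.61, SE 0.472). The hexokinase domain gene HKDC1 rose by 2.33 (SE 0.0657). PFKM, named after its value was seen, was the other gene called higher (0.18, edgeR FDR = 0.0267), and 1 gene in place of 2 was called higher with DESeq2 and without either control library or restored replicate 2.
Among paralogs and side branch genes related to the 9 genes, LDHC was higher and PGAM5 lower in restored cells. Of 12 minor paralogs and side branch genes, 6 were measured and 5 were tested, with a median of -0.31. Of those tested, 1 was lower and 1 was higher, against 31.9% and 32.6% of all genes tested. LDHC, the lactate dehydrogenase of testis, had 20 and 15 counts in the control and 6 and 45 counts in restored cells (log2 fold change 1.38, SE 0.389, edgeR FDR = 0.00286). PGAM5, a mitochondrial phosphatase named for its mutase domain, fell by 0.42 (SE 0.0689). No gene of the list was called higher with DESeq2 or without the deeper control library or restored replicate 2. PKLR, the liver and red cell pyruvate kinase, and PGK2, PGAM2 and GAPDHS were not analysed here.
Of 6 genes for lactate and pyruvate export, 3 were tested. The lactate exporter SLC16A3 was at 961 and 929 CPM in the control and at 536 and 559 CPM in restored cells, a log2 fold change of -0.78 (SE 0.0605, edgeR FDR = 4.82e-12). Its chaperone BSG rose by 0.18 (SE 0.0584, edgeR FDR = 0.00961), and SLC16A7 had a log2 fold change of -0.32 (SE 0.258, edgeR FDR = 0.278). The median of the 3 was -0.32. The call of BSG was lost without either control library.
Of 6 splicing factors known to act on the alternative exons of PKM, 4 were lower and 1 was higher, with a median of -0.36. Of all genes tested, 31.9% were lower and 32.6% higher, so that 64.5% were called in either direction. HNRNPA2B1 and HNRNPA1, which repress the M1 exon, had log2 fold changes of -1.48 and -1.22 (SEs 0.0623 and 0.0635), and the kinase NEK2 had -0.46. SRSF3, named after its value was seen, rose by 0.23, a call that was lost without the deeper control library. The forms of PKM themselves were not measured.
Among 8 genes of the shuttles that carry cytosolic NADH into mitochondria, 7 were tested, with a median of -0.01. Of those tested, 2 were lower and 3 were higher, against 31.9% and 32.6% of all genes tested. GPD1L, related to the enzyme of the glycerol phosphate shuttle, rose by 1.05 (SE 0.118), and the aspartate aminotransferase GOT1 rose by 0.74 (SE 0.0654). The aspartate and glutamate carrier SLC25A13 fell by 0.82 on the log2 scale (SE 0.0774).
Of 6 HIF and MYC transcription factor genes, 5 were higher and 0 were lower by edgeR, against 32.6% and 31.9% of all genes tested. Their median log2 fold change was 0.99. DESeq2 and limma-voom also called 0 lower, 0 were lower at an unadjusted p under 0.05, and edgeR called 1 lower without restored replicate 2. MYC, EPAS1 (the gene of HIF2α) and HIF1A had log2 fold changes of 1.41, 1.37 and 1.35 (SEs 0.0682, 0.0613 and 0.064). These are values of mRNA and not of protein. By Western blot the paper reports less HIF2α protein after VHL restoration, and it states that 786-O does not express HIF1α. ARNT, the shared HIF partner, was the sixth, with a log2 fold change of -0.17 (SE 0.0891, edgeR FDR = 0.0901).

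GAPDH is in common use as a reference gene, and 12 other such genes were set beside it. Of these, 6 were lower, 1 was higher and 5 did not pass at FDR < 0.05, and the median change was -0.18 on the log2 scale. Of all genes tested, 31.9% were lower and 32.6% higher. TFRC, HPRT1 and PPIA had log2 fold changes of -2.06, -1.31 and -1.19 (SEs between 0.0595 and 0.0889). B2M, named after its value was seen, rose by 0.76 (SE 0.0625), and 2 genes in place of 1 were called higher with limma-voom, with library totals and without restored replicate 1. RPLP0, YWHAZ and GUSB, also named after their values were seen, had log2 fold changes of -0.05, -0.06 and -0.05 (SEs 0.0615, 0.0592 and 0.0712).
Over the 4 libraries, the genes whose centred log2 CPM was most like the median profile of the 9 genes, among 4522 other genes of at least 50 CPM, were VDAC1, CDKN2C and RBM14. Their root mean square differences from it were 0.0117, 0.0119 and 0.0126 on the log2 scale. VDAC1 is the main channel of the outer mitochondrial membrane, CDKN2C an inhibitor of cyclin-dependent kinases and RBM14 an RNA-binding protein. Their log2 fold changes were -1.13, -1.13 and -1.11, and the likeness rests on 4 libraries in 2 groups.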

How the data were processed

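RNA of the control and restored sublines was extracted in duplicate and sequenced as Illumina TruSeq libraries. The authors deposited raw whole-number counts per gene, without normalization, in 1 table of 12912 genes. The submitters' processing notes name hg19, STAR and CASAVA. No source used here states how reads were counted, whether strand was used, or which annotation served. Both control columns carry the same replicate number and were used as replicates of the group.
The counts were tested with edgeR 4.0.16 (R 4.3.3). After filterByExpr at a minimum count of 10, 12335 genes were left. TMM scaling, the quasi-likelihood F test with group as its single term and Benjamini-Hochberg adjustment followed, with SEs implied by the F statistic. Replicates differed by more than sampling noise (chi-square per degree of freedom 2.25 for the control, 2.76 for the restored subline). Depth ranged from 2807779 to 22141263 counts, so values of genes with few counts are least precise in restored replicate 1. Coordinates, exons and lengths came from GENCODE on GRCh37, and promoter windows from RefSeq on GRCh38.p14. Shares and ratios were compared by exact permutation over libraries.
The 9 genes and all lists were chosen with earlier results of these data known. Named genes are the 9 genes, in each list the 3 with the largest absolute log2 fold change past FDR 0.05 (every tested gene in lists with fewer than 4), VHL, and the 3 genes nearest in profile. On simulated counts for this comparison (12335 genes, 200 changed), edgeR recovered 191 (97 of the 2-fold and 94 of the 4-fold changes) and made 13 false calls. The simulation gave every gene the same dispersion (0.00186) and changed few genes, whereas 64.5% of genes were called in the data. It therefore checks the running of the fit and does not give the error rate in these data. Alternatives were DESeq2 1.42.0, limma-voom (limma 3.58.1), RLE size factors, library totals, other filters, thinning to the shallowest library, scaling without mitochondrial genes and the 9 genes, a prior count of 2, stricter thresholds, other lengths, minor paralogs added to a step, and each library left out.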

Additional observations from a re-analysis of the deposited data

How the results depend on the processing

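Over 13 alternatives for each of the 9 genes, 111 of 117 values kept their direction and their side of FDR < 0.05, and none was reversed. The other 6 were all of LDHB, with log2 fold changes of -0.31 with DESeq2, -0.22 with library totals and -0.19 after thinning, and -0.31, -0.35 and -0.03 without the deeper control, the shallower control and restored replicate 2; the cause was not tested. Without restored replicate 1 the LDHB call held, at -0.46. With each library left out, the median log2 fold change of the 9 genes lay between -1.15 and -1.11. At edgeR FDR < 0.01, 7 of the 9 genes were called lower, against 27.6% of all genes tested. At 2-fold or more, 6 were, against 7.52%. With library totals alone the median of all genes moved by 0.13 on the log2 scale, to 3097 lower and 5077 higher calls (62.1% higher, against 50.5% with TMM), and the median of the 9 genes lay at -1.12 relative to that of all genes under both scalings.
The difference in share (restored minus control, in percentage points) per kilobase of exon union, then of canonical transcript, was -1.62 and -1.39 for LDHA (-0.824 in counts), 0.377 and 0.116 for ENO1 (0.311), -0.726 and -0.47 for ENO2 (-0.6), and 0.349 and 0.354 for ENO3 (0.288). Canonical lengths were chosen after seeing the data. After thinning it was 0.0949 for ENO1 and -0.398 for ENO2. With each library left out it ranged from -1.04 to -0.611 for LDHA, 0.276 to 0.347 for ENO1, -0.611 to -0.589 for ENO2 and 0.258 to 0.319 for ENO3, and the difference in the 9 genes' share of all counts from -0.724 to -0.695.
The number called higher in the upper glycolysis list was 1 with DESeq2 and after thinning, and 1 to 2 with each library left out. Among minor paralogs it was 0 with DESeq2, 0 with at least 10 counts in every library, 0 after thinning, and 0 to 1 with each library left out. It was likewise 0 to 1 for export and for PKM splicing factors. Among reference genes it was 2 with limma-voom, library totals, at least 10 counts in every library and thinning, and 1 to 2 with each library left out. Of the HIF and MYC factors, 0 to 1 were called lower. Calls over all genes fell from 3939 lower and 4017 higher to 3150 and 2816 with DESeq2. The share of all genes called higher was 21.8% with DESeq2, 33.8% with limma-voom and 41.2% with library totals. It was 34.3% with at least 10 counts in every library and 26.7% after thinning. No paired analysis was possible because both control columns carry the same replicate number. The depth of restored replicate 1, 2807779 counts, limits what can be said of ENO3 and LDHB, with 28 and 54 counts there.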
